A study of Mus musculus with 2 samples.

Results

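Amino acid transporter genes were examined for ATF4 peaks in primary mouse neurons. The 10 genes, all found among the 21887 protein-coding genes of the gene table, encode plasma membrane carriers of amino acids (Slc7a11, Slc7a5, Slc7a1, Slc7a3, Slc1a4, Slc1a5, Slc6a9, Slc38a1 and Slc38a2) and the heavy chain Slc3a2 that some of them need. They were chosen by name and function, with earlier results of this library known. A peak was assigned to a gene when its summit, the position of its highest signal, fell in the gene body or no more than 10 kb beyond it. By this rule 12 of the 7873 ATF4 peaks belonged to the 10 genes. CUT&Tag, in which an antibody guides the pA-Tn5 transposase to cut and tag DNA around a protein, was performed on neurons isolated from cortex and hippocampus of late embryonic C57BL/6 mice. A single library was made with an ATF4 antibody and another with IgG, with an input of about 100000 cells per library. Neither the labels nor the methods state a treatment of these neurons. Every value below comes from the ATF4 library, which had no replicate, so no value has a replicate error and no difference between conditions was measured. The IgG library was not analysed here, and the fold enrichments and q-values cannot be read as enrichment over it.

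ATF4 is a transcription factor of the integrated stress response. Its translation rises when eIF2α is phosphorylated, and with C/EBP family partners it binds C/EBP-ATF response elements (CARE) at genes for amino acid synthesis and uptake. The transporters fall into a few classes. Slc3a2 (CD98 heavy chain) pairs with Slc7a11 to form the cystine/glutamate exchanger, which supplies cystine for glutathione synthesis, and with Slc7a5 to form the exchanger of large neutral amino acids such as leucine. Slc7a1 and Slc7a3 carry arginine and lysine. Slc1a4 exchanges serine, alanine and cysteine, and Slc1a5 also exchanges glutamine. Slc6a9 takes up glycine, and in the brain it limits the glycine available to NMDA receptors. Slc38a1 and Slc38a2 take up glutamine and alanine with sodium, and in neurons glutamine is a precursor of glutamate.

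Across all 7873 peaks, the median width was 207 bp and the median fold enrichment over the caller's background was 4.33. The number of fragments at each summit was solved from the deposited fold enrichment and p-value, which gave a median of 4 and a 90th percentile of 8 fragments. As a check of the antibody, 9 of 10 known ATF4 target genes (Asns, Chac1, Trib3, Ddit3, Sesn2, Atf5, Ddit4, Nupr1 and Vldlr, but not Cebpb) had a summit no more than 1 kb from either end, and 8.13% of all protein-coding genes did. A peak whose -log10 q reached 5 was found for 6 of these 10 targets. Only 1 target had a peak among the 100 highest by -log10 q. The strongest peaks of Ddit4, Sesn2 and Vldlr held 6, 7 and 8 fragments, and their -log10 q values were 2.43, 3.27 and 3.89. The strongest summits of Trib3 and Atf5 were nearer to an end of Gm14165 and Nup62. The targets, too, were chosen with earlier results of this library known. A peak list of a transcription factor does not measure expression, so the labelled cell type was not checked against marker genes.

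A peak was found at 8 of the 10 transporter genes (80.0%), whereas 24.8% of all protein-coding genes had a summit inside them or within 10 kb of their ends. Among protein-coding genes in the length range of the 10 genes, 11307 to 134152 bp, the share was 27.0%. All 8 genes also had a peak with a -log10 q of at least 5, which 6.21% of protein-coding genes had. The strongest peak, that with the highest -log10 q of its gene, was among the 100 highest of the list for 5 genes (Slc7a5, Slc1a4, Slc6a9, Slc7a1 and Slc38a2), and 0.516% of protein-coding genes had 1 of those 100 peaks. This count depended on the ranking. By fragments, the same 5 genes ranked between 27 and 76. By fold enrichment, only Slc7a5 (rank 62) stayed among the 100 highest, and Slc38a2 (104), Slc1a4 (125), Slc6a9 (127) and Slc7a1 (225) did not. More than 1 peak was present at 3 of the 10 genes (Slc7a1, Slc7a5 and Slc38a2), against 5.04% of protein-coding genes with 2 or more. Among these 10 genes, peaks were present at the heavy chain Slc3a2 and its partners Slc7a11 and Slc7a5, at Slc38a1 and Slc38a2, at the glycine carrier Slc6a9, at Slc7a1 but not the other cationic carrier Slc7a3, and at Slc1a4 but not Slc1a5. The genes were selected with earlier results of this library known, so these counts are a description.

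**Figure D1:**
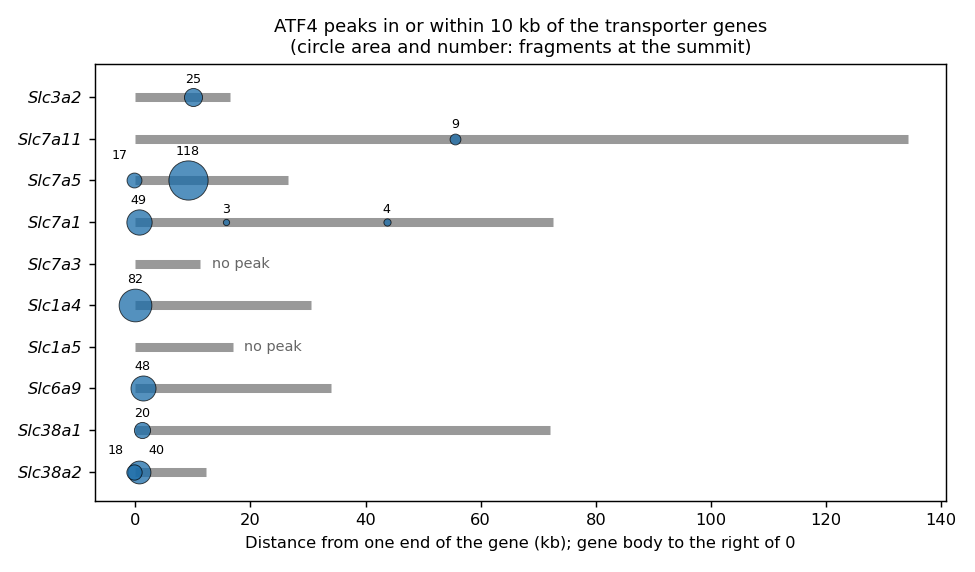
Summits of the 12 peaks along the 10 transporter genes, drawn as grey bars to scale in kb. Zero is the end at which the gene begins where its strand is listed, or otherwise the end nearer to the strongest peak. Circle area and number give the fragments at the summit. The tallest peaks of Slc7a1, Slc1a4 and Slc38a2 sit within 1 kb of that end, those of Slc38a1 and Slc6a9 lie 1202 and 1260 bp inside the gene, those of Slc7a5, Slc3a2 and Slc7a11 lie 9116, 10051 and 55491 bp inside, and Slc7a3 and Slc1a5 have none.

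The peaks were related to gene ends and to annotated starts. Of the 12 summits, 9 were inside their gene and 3 were outside, the farthest 272 bp from the gene. The nearest summit beyond the 10 kb limit was 13.5 kb from Slc6a9, had 4 fragments and lay 702 bp from an end of B4galt2, so no summit lay just inside or just outside the limit. Of the next summits beyond the limit, 1 for each gene, 2 still had an end of that same gene as their nearest gene end, 1 with 6 fragments 19.4 kb from Slc7a1 and 1 with 7 fragments and a -log10 q of 6.06 at 23.5 kb from Slc38a1, and neither was counted. By gene ends, 5 summits of 4 genes (Slc7a5, Slc7a1, Slc1a4 and Slc38a2) were within 1 kb, that is 4 of 10 genes against the 8.13% of protein-coding genes. Slc7a5 counted here only through its lower peak, with its summit 242 bp outside the gene and 95 bp from an end of the non-coding gene BC048644. The promoter table listed starts for 6 of the 10 genes (Slc3a2, Slc7a11, Slc7a1, Slc1a4, Slc6a9 and Slc38a2), and not for Slc7a5, Slc7a3, Slc1a5 and Slc38a1. For 5 of these 6 a summit lay within 1 kb of a listed start, and Slc6a9, at 1260 bp, was the exception. Among the 17492 protein-coding genes with a listed start, 8.20% had a summit within 1 kb of one. A peak interval covered a listed start in 5 of the 6 genes, all but Slc3a2, and in 3.20% of the protein-coding genes with a listed start. In 5 of the 6 genes the strongest summit was downstream of the start, by between 17 bp (Slc7a11) and 1260 bp (Slc6a9), whereas at Slc1a4 it was 33 bp upstream.

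**Figure D2:**
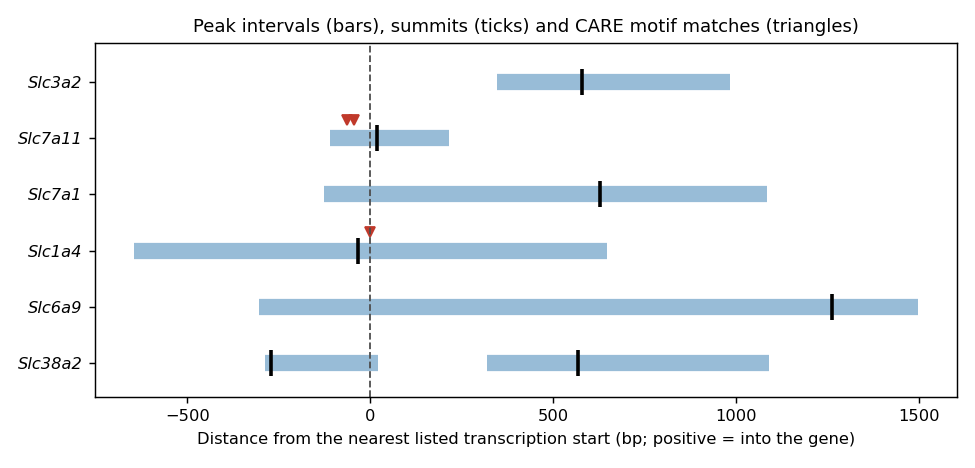
Peak intervals (bars) and summits (black ticks) within 2 kb of the nearest listed transcription start (dashed line at 0) for the 6 genes with a listed start, in bp along the direction of transcription. Red triangles mark matches of the CARE motif in the 300-base promoter window. Matches are present at Slc7a11, at 66 and 47 bp upstream, and at Slc1a4, over the start.

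Sequence was available for 9 promoter windows of these 6 genes, each holding 250 bases before and 50 after a listed start, from RefSeq (GRCm38.p6). They were searched on both strands for the CARE motif TGATGNAA, for its strict core TGATGCAA, which is a subset of the first, and for the cyclic AMP response element TGACGTCA. Of all 32851 promoter windows, 3.97% held TGATGNAA, 0.895% held TGATGCAA and 1.79% held TGACGTCA. TGATGNAA was present in 2 of the 9 windows, at Slc7a11 and Slc1a4, which were also the only 2 windows with a summit inside them. All 3 matches had the strict core, and no window held TGACGTCA. Of the 5 windows under a peak interval, those of Slc7a1, Slc6a9 and Slc38a2 had no match, which says only that these letters are not in those windows. Across the library, 6.38% of the 721 windows with a summit inside held TGATGNAA (Clopper-Pearson 95% interval 4.71% to 8.42%), and the share was 12.8% (9.22% to 17.1%) of the 297 windows with a summit of -log10 q of at least 5. For TGATGCAA these shares were 2.91% (1.81% to 4.42%) and 6.40% (3.90% to 9.81%), and for TGACGTCA they were 4.44% (3.06% to 6.21%) and 3.70% (1.86% to 6.53%). In median GC content, the 9 windows stood at 60.3%, against 52.7% for all windows, from 44.7% at Slc7a11 to 73.0% at Slc38a2.

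The stretch from 150 bases before to 20 bases after the start is shown for the 2 genes with a match and for Slc38a2, whose start was covered by a peak without one. Each is written from 5′ to 3′ on the strand of the gene, which is the minus strand for all of them, and capitals mark matches of TGATGNAA. The stretches lie at chr3:50443594-50443763 for Slc7a11, chr11:20332694-20332863 for Slc1a4 and chr15:96699709-96699878 for Slc38a2 (GRCm38.p6).
Slc7a11: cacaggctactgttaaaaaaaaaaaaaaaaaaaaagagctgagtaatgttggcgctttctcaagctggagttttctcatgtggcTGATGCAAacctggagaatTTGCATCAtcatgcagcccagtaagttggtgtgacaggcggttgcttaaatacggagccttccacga
Slc1a4: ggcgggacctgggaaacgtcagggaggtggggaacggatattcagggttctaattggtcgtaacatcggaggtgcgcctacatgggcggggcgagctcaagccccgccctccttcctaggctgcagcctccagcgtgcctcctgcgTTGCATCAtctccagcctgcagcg
Slc38a2: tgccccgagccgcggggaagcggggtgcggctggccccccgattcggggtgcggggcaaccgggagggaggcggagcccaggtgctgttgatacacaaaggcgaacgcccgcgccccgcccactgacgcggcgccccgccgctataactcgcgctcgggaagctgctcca

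The promoter of Slc7a11 is known for a pair of amino acid response elements in opposite orientation. In the stretch shown, a match on the strand of the gene began 66 bases upstream of the start and a match on the opposite strand began 47 bases upstream, with 11 bases between them. Both lay inside the peak, 76 bp and 57 bp from its summit. At Slc1a4 the single match was on the opposite strand, began 4 bases before the start and ran over it, 29 bp from the summit. In the Slc38a2 window, which was the most GC-rich of the 9, 273 of the 300 bases lay under the lower of its peaks, and the summit of the taller peak was downstream of the window, where no sequence was used.

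The heavy chain gene Slc3a2 had 1 peak, on chromosome 19 from 8712915 to 8713550 (mm10). It was 636 bp wide, with 25 fragments at the summit (exact Poisson 95% interval 16.2 to 36.9), a fold enrichment of 11.0 and a -log10 q of 18.7, which ranked 149th of all peaks. The summit lay inside the gene, 6.44 kb from its nearer end. It was 579 bp downstream of the transcription start that the promoter table lists for Slc3a2, and the peak interval began 347 bp downstream of that start. Thus the peak was internal to the gene record but close to an annotated start.

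Slc7a11, the cystine/glutamate exchanger, had the lowest of the 8 strongest peaks. It spanned 326 bp on chromosome 3 from 50443398 to 50443723, with 9 fragments (interval 4.12 to 17.1), a fold enrichment of 7.07 and a -log10 q of 6.40. It ranked 854th, tied with 1 other peak, within the highest 10.8% of the list. Although the gene record extended 55.5 kb past the summit on its nearer side, the summit was only 17 bp downstream of the listed transcription start, and the interval covered that start. The interval of the 9 fragments of Slc7a11 overlapped that of the 20 of Slc38a1, and the difference was not tested.

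Slc7a5, the carrier of large neutral amino acids, had the tallest peak among the 10 genes. This internal peak spanned chromosome 8 from 121898006 to 121898955, with 118 fragments (interval 97.7 to 141.3), a fold enrichment of 15.0 and a -log10 q of 94.0, ranking 27th. The nearer end of Slc7a5 was 9.12 kb from its summit. A second and lower peak, from 121907335 to 121908104, covered that end, with 17 fragments (interval 9.90 to 27.2), a fold enrichment of 6.66 and a -log10 q of 7.99. The summit of this second peak was 242 bp outside Slc7a5, and it was nearer to an end of the long non-coding RNA gene BC048644, at 95 bp. The Slc7a5 summits were 9.36 kb apart, and the intervals of their fragment counts did not overlap. Beyond the reach of the rule, 29.975 kb from the other end of Slc7a5, was a further tall peak on the same chromosome from 121850776 to 121851668. It held 133 fragments (interval 111.4 to 157.6), with a -log10 q of 108.3, ranking 26th, and its nearest gene end was that of the non-coding gene Gm26812, at 985 bp. This peak was not counted for Slc7a5.

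The cationic carriers Slc7a1 and Slc7a3 differed in whether any peak was present. At Slc7a1, the strongest peak covered the outer listed start of the gene, on chromosome 5 from 148398821 to 148400031. It was 1211 bp wide, with 49 fragments (interval 36.3 to 64.8), a fold enrichment of 10.2 and a -log10 q of 31.5, ranking 77th. Its summit lay 627 bp inside the gene, downstream of the start. The other 2 peaks of Slc7a1 were deep in the gene body, 15.8 kb and 28.8 kb from the nearer end, with 3 and 4 fragments and -log10 q values of 2.43 and 2.65. Both stood at the low heights that made up much of the list, in which 41.0% of peaks had 3 fragments. Slc7a3 had no peak, and the nearest summit was 131.9 kb away, at an end of Snx12. Because the list holds only peaks past the caller's threshold, it gives no value, and no upper limit, for Slc7a3.

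A like contrast was seen between Slc1a4 and Slc1a5. Slc1a4, the serine and alanine exchanger, had 1 peak centred on its transcription start, on chromosome 11 from 20332065 to 20333358. It was 1294 bp wide, with 82 fragments (interval 65.2 to 101.8), a fold enrichment of 12.2 and a -log10 q of 58.2, ranking 45th. Its summit was 33 bp upstream of the listed start, and the interval reached from -645 to 648 bp relative to it, almost evenly on either side. Slc1a5 had no peak in the gene or within 10 kb, and the nearest summit, 126.1 kb away, had 5 fragments. The difference between Slc1a4 and Slc1a5 could not be tested, since the list holds no value for Slc1a5.

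At Slc6a9, the glycine carrier, the peak was the widest of all 7873 peaks, at 1802 bp on chromosome 4 from 117834954 to 117836755. It held 48 fragments (interval 35.4 to 63.6), with a fold enrichment of 12.2 and a -log10 q of 35.3, ranking 72nd. The interval covered the outermost of the 3 listed starts, from -304 to 1497 bp relative to it, and the summit was 1260 bp downstream of that start. Neither of the other listed starts of Slc6a9 had a summit within 1 kb.

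The glutamine carriers Slc38a1 and Slc38a2 are neighbours on chromosome 15, with 43.953 kb between the genes. Slc38a1 had 1 peak from 96642035 to 96643190, 1156 bp wide, with 20 fragments (interval 12.2 to 30.9), a fold enrichment of 8.88 and a -log10 q of 12.7, ranking 260th. Its summit was 1202 bp inside the gene. Slc38a2, whose first intron is known to hold an amino acid response element, had a pair of peaks at the same end of the gene. The taller, from 96698640 to 96699408, had 40 fragments (interval 28.6 to 54.5), a fold enrichment of 12.8 and a -log10 q of 31.2, ranking 78th, with the summit 568 bp downstream of the listed start. The lower, from 96699706 to 96700017, covered the start and had 18 fragments (interval 10.7 to 28.4) with the summit 272 bp upstream. The summits were 840 bp apart, with 297 bp between the peaks, and the fragment intervals of the pair did not overlap. The strongest peaks of Slc38a1 and Slc38a2 were 56.9 kb apart, and their fragment intervals, 12.2 to 30.9 and 28.6 to 54.5, did overlap.

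**Figure D3:**
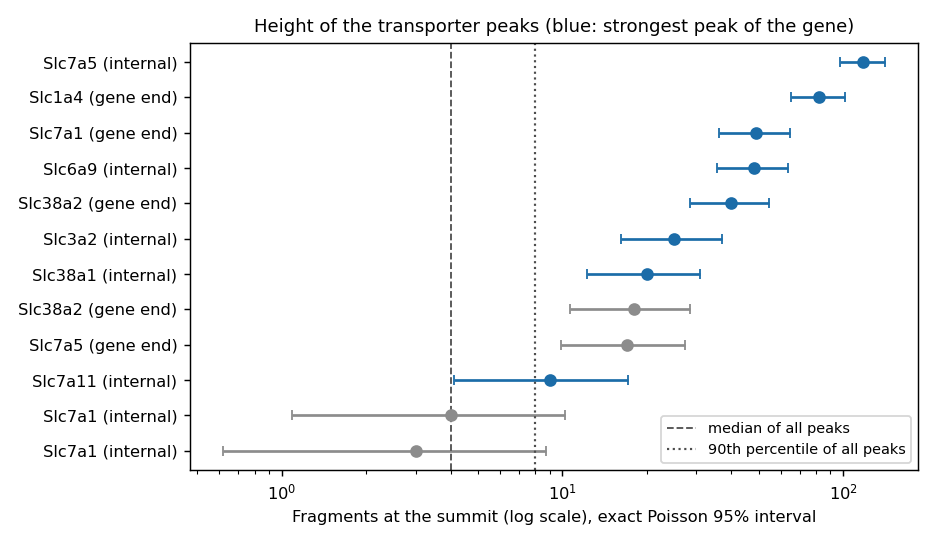
Fragments at the summit (log axis) of the 12 peaks, with exact Poisson 95% intervals that cover counting error only. The strongest peak of each gene is blue and the others are grey, and the label gives whether the summit is within 1 kb of a gene end or internal. The strongest peaks run from 9 fragments at Slc7a11 to 118 at Slc7a5, all above the 90th percentile of the list, 8 fragments.

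In the order of fragments at the strongest summit, the genes ran Slc7a5 (118), Slc1a4 (82), Slc7a1 (49), Slc6a9 (48), Slc38a2 (40), Slc3a2 (25), Slc38a1 (20) and Slc7a11 (9). Neighbours in this order had overlapping intervals, except Slc1a4 and Slc7a1, where the lower bound of 65.2 stood above the upper bound of 64.8. Of the 28 pairs of these genes, 17 had intervals that did not overlap. Overlap of intervals is not a test of a difference. Fragments that are PCR copies are not independent molecules, so the true intervals can be wider. The order by fold enrichment was different. The fold is the number of fragments plus 1 over the caller's background at the summit plus 1, and that background was 0.415 fragments at Slc7a11 and 6.93 at Slc7a5, against a genome-wide value of 0.0855. By fold enrichment, the highest values were 15.0 at Slc7a5, 12.8 at Slc38a2, 12.2 at Slc1a4 and 12.2 at Slc6a9.

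**Figure D4:**
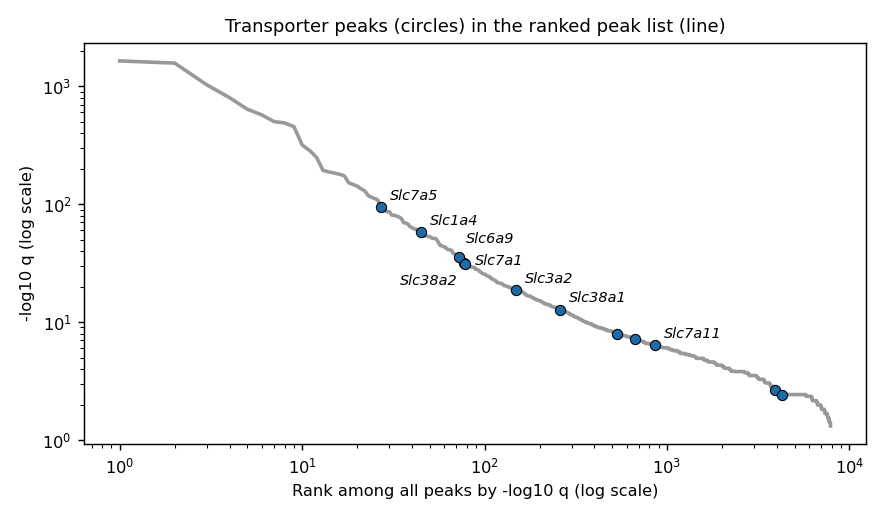
The -log10 q of all 7873 peaks against their rank (grey line, both axes logarithmic), with the 12 transporter peaks as circles and the strongest of each gene named. The strongest peaks extend from rank 27 (Slc7a5) to rank 854 (Slc7a11), with the 4 further peaks between ranks 534 and 4272.

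The strongest peaks were wide. Their widths ran from 326 bp at Slc7a11 to 1802 bp at Slc6a9, with a median of 1053 bp, and all 8 exceeded the list median of 207 bp. 4 of them (Slc6a9, Slc1a4, Slc7a1 and Slc38a1) were among the 20 widest peaks of the library, ranking 1st, 6th, 9th and 12th. Because peaks of 20 or more fragments were wider than the list as a whole, such peaks were set beside them, without matching their heights further. The 7 strongest peaks with 20 or more fragments had a median width of 1156 bp, and 4 of 7 exceeded 1000 bp. The other 178 peaks of the list with 20 or more fragments, which reached 2206 fragments against 118 in the transporter genes, had a median of 562.5 bp, and 15 of them (8.43%) exceeded 1000 bp. The peak of Slc7a11, with 326 bp, was close to the median of 292 bp of the other 129 peaks with 9 fragments. Width and height come from the same fragments, and these differences were not tested.

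**Figure D5:**
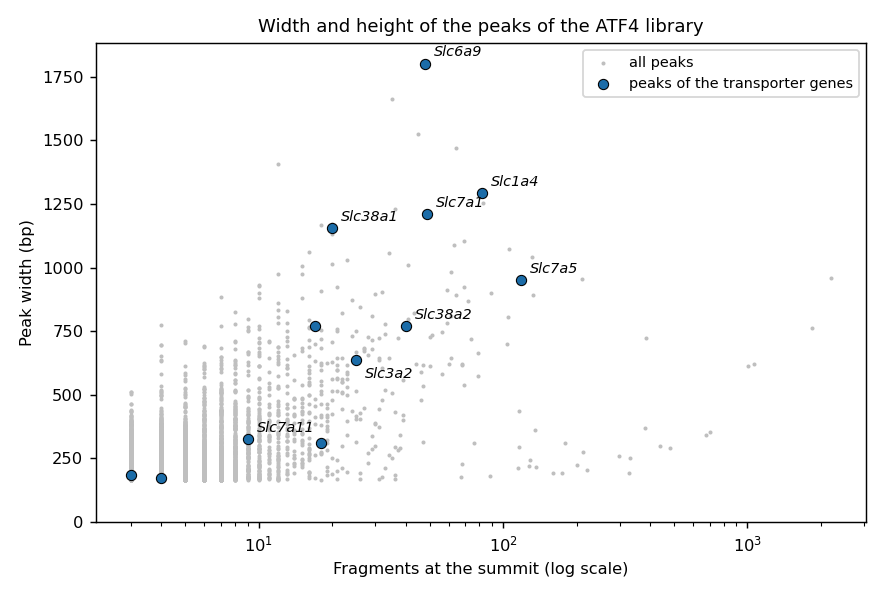
Width (bp) against fragments at the summit (log axis) for all 7873 peaks (grey) and the 12 transporter peaks (blue), with the strongest peak of each gene named. Slc6a9, at 1802 bp and 48 fragments, is the widest peak of the library, and Slc1a4, Slc7a1 and Slc38a1 also lie at the upper edge of the cloud.

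A second list of 43 other amino acid transporter genes, written from general knowledge, was set beside the 10 genes. All 43 were in the gene table, and 10 of them (23.3%) had a peak in the gene or within 10 kb, close to the 24.8% of all protein-coding genes. None of these reached a -log10 q of 5, against 6.21% of protein-coding genes. Their strongest peaks held 3 to 5 fragments, with a median of 4, whereas those of the 8 genes held 9 to 118, with a median of 44. Only Slc38a7, a further member of the Slc38 family, had a summit within 1 kb of a gene end, at 267 bp and with 4 fragments, which is 2.33% of the list against 8.13% of protein-coding genes. Slc1a2 and Slc1a3, the main glutamate carriers of astrocytes, had peaks of 3 and 5 fragments inside the gene, and Slc1a1, Slc1a6 and Slc1a7 of the same family had none. The summit in Slc1a2 was nearer to an end of LOC115489466, at 8149 bp, than to an end of Slc1a2, at 9218 bp. Slc7a6, which also pairs with Slc3a2, had a peak of 5 fragments, 1222 bp from its end, and the further light chains Slc7a7, Slc7a8 and Slc7a10 had none. The cationic carrier Slc7a2 had 2 peaks, the stronger with 4 fragments. Of the 33 genes of this list with a listed start, 3 (Slc7a6, Slc38a7 and Slc43a2, a carrier of large neutral amino acids) had a summit within 1 kb of it, near the 8.20% of protein-coding genes. The genes of this list named here were chosen after their values were seen. An interval of 5 fragments runs from 1.62 to 11.7, which overlaps that of Slc7a11 and none of those of the other 7 genes. Both lists were chosen with earlier results of these data known, and the 43 genes are transporters left outside the 10. The contrast between both lists is therefore a description, and it was not tested.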

How the data were processed

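Neurons were profiled by CUT&Tag with an ATF4 or an IgG antibody (1 library each), and samples were grouped by the antibody in the labels. The authors deposited the peaks of the ATF4 library. The submitters' processing notes name BWA, MACS2 2.1.2, FastQC, deepTools and the build mm10, without their roles; the threshold and the use of IgG in peak calling are not given in the sources used here. The deposited file holds peak positions, a ratio (the fold over the caller's own background), and p-value and q-value as -log10. The deposited display score was, in all 7873 peaks, the whole part of 10 times the -log10 q, and was not used further.

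From these, the number of fragments n and the background b at each summit were solved from fold = (n + 1)/(b + 1) and the Poisson upper tail, as MACS2 computes them, with a tolerance of 0.001 on -log10 p. All 7873 peaks had a solution, 35 had more than 1 (none at the 10 genes), and the solver was tested on simulated data. Should the caller have counted single reads, these numbers stand for reads. Exact Poisson and Clopper-Pearson intervals (95%) cover counting error only, and the total depth of the library is unknown. Genes were matched by symbol to the RefSeq table of GRCm38.p6, the assembly of mm10, with starts, strands and promoter sequences from the RefSeq promoter table. No genome sequence was used, so the planned motif search at the summits was not made. Alternatives were stricter peak lists, other windows, interval overlap, other rankings and a stricter motif. No test was made, as there is 1 library. The members and lists were chosen with earlier results of these data known. The rule for named genes was all 10 members and other transporters with a -log10 q of at least 5. It added any gene whose end was nearer to a summit than the end of the member. No other transporter reached that -log10 q, and those named were chosen after their values were seen. Among the known targets and the other transporters, such nearer genes are not all named. Values were computed in pandas 2.3.3, scipy 1.17.1 and numpy 2.4.6 and drawn in matplotlib 3.10.9, under Python 3.11.15.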

Additional observations from a re-analysis of the deposited data

How the results depend on the processing

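A peak was present at 8 of the 10 genes under all 6 alternatives (a -log10 q of at least 5, a fold enrichment above the median, at least 6 fragments, interval overlap, and windows of 3 kb and 1 kb). The number of peaks was 10 with each of the 3 stricter lists and otherwise 12. Genes with a summit at a gene end ranged from 3 to 6 over the alternatives, against 4 as reported. Within 500 bp of a listed start the count was 3 genes in place of 5, since Slc3a2 and Slc7a1 have their summits at 579 and 627 bp. Among the 43 other transporters the count of 10 fell to 0 with a -log10 q of at least 5 and to 0 with at least 6 fragments. Ranked by fold enrichment in place of -log10 q, the strongest peaks moved from 27 to 62 (Slc7a5), 45 to 125 (Slc1a4), 72 to 127 (Slc6a9) and 77 to 225 (Slc7a1). The other 40 of 47 alternative values stayed within 1.5 times the reported count or rank, and both promoters with a CARE match also held the strict core. Slc38a2, which moved from 78 to 104 by fold enrichment, stayed within that factor but left the 100 highest peaks. The motif alternatives at the summits could not be run without a genome sequence. At this depth peaks of 3 to 5 fragments cannot be ranked among themselves, and nothing was set against IgG.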
